A study of Gallus gallus and Dromaius novaehollandiae with 14 samples.

Results

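Feather epidermis of the emu was compared with feather epidermis of the chicken, gene by gene, at the same embryonic stage. The comparison rests on 4 of the 14 RNA sequencing libraries of the series, 2 from emu feather tracts and 2 from chicken feather tracts, chosen by the labelled species and tissue. All 4 came from skin at Hamburger and Hamilton stages 33 to 34, when feather placodes are present. Strain, genotype, age in days and sex are not stated. Emu eggs were incubated at 35.5 °C and chicken eggs at 37.8 °C, so incubation temperature and species cannot be told apart. In every group the epidermis was separated from the dermis with the protease dispase at 10 mg/mL and 4 °C for 13 h, and polyadenylated RNA was sequenced. The other 10 libraries came from scutate scale (stage 37), reticulate scale (stage 39) and claw (stage 36) tracts of the same species, with 2 libraries in each chicken group and in emu scutate scale, and 1 library each in emu reticulate scale and emu claw. The labels do not say whether embryos were pooled.

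A feather placode is a local thickening of the embryonic epidermis that forms in exchange with the dermis below it and then grows out as a feather bud. Signals of the Wnt, ectodysplasin, fibroblast growth factor, hedgehog and bone morphogenetic protein families are known to set where placodes form, and the epidermis between and around the placodes is part of the same tract. The emu is a flightless bird of the ratite lineage, which parted early from the lineage of the chicken, and its feathers are loose and lack an interlocked vane. In such bulk samples, fewer cells of a type and less RNA per cell cannot be told apart.

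Genes were listed for both species under Ensembl chicken identifiers, with no gene names. The annotation used here paired 0 of the 8751 identifiers with a symbol, so epidermal, dermal and pigment cell markers and the members of the signalling pathways were not checked, and the labelled tissue was taken as given. Values were analysed as TPM (transcript abundance scaled by length and expressed as a part of the library). The genes tested, 7216 in number, were those with a TPM of 1 or more in 2 or more of the 4 feather libraries. This filter admits a gene that is high in only 1 species.

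The 4 feather libraries were the most even of the data. Over the tested genes, replicates correlated at r = 0.992 in chicken feather and 0.993 in emu feather, on log2(TPM + 1). The median absolute difference between replicates was 0.10 log2 units in chicken and 0.11 in emu, and 74 and 54 genes were at least 2-fold apart between them. An emu feather library correlated with a chicken feather library at 0.703 to 0.706. The median TPM was 23.7 and 24.9 for the chicken feather libraries and 25.3 and 24.3 for the emu feather libraries. The emu columns are named as scaled and each summed to 550000 TPM. Alike medians are thus partly set by that scaling and are not a finding about the samples. Chicken claw was the least even group, with 652 genes at least 2-fold apart between its replicates. The number of reads behind a TPM is unknown.

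Most genes tested differed between the species in their listed feather values. The assignment of emu transcripts to chicken identifiers is not stated, so its effect on a gene cannot be told apart from that of species. A total of 4627 of the 7216 genes were called at an adjusted p under 0.05 (limma, Benjamini-Hochberg), which is 64.1% of those tested. Of these, 2421 were higher in emu (33.6% of the genes tested) and 2206 were lower (30.6%). The 2 emu libraries lay both above or both below the 2 chicken libraries for 6440 genes, 89.2% of those tested (emu above in 45.8%, emu below in 43.5%). The median difference over all tested genes was 0.03 log2 units, and after median-ratio rescaling the majority turned to lower in emu, with 2284 higher and 2383 lower.

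**Figure D1:**
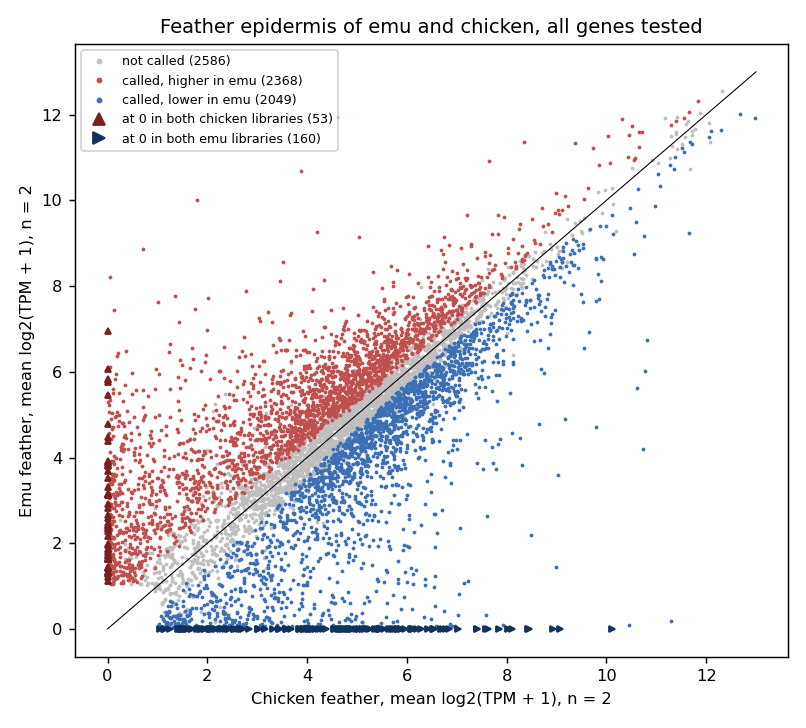
Mean log2(TPM + 1) of each of the 7216 tested genes in chicken feather (horizontal axis, n = 2) and emu feather (vertical axis, n = 2), with the line of equality. Called genes lie on both sides of the line over the whole range of levels, and the triangles on the axes are the 53 genes listed at 0 in both chicken libraries and the 160 listed at 0 in both emu libraries.

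Genes with a value above 0 in all 4 feather libraries numbered 6883. Of these, 4301 were called, 2311 higher and 1990 lower in emu. Many of the called differences were moderate: 1013 higher and 953 lower genes, 45.7% of the calls, were under 2-fold apart on log2(TPM + 1). Differences of at least 2-fold were seen in 1298 genes higher and 1037 lower in emu. At least 4-fold differences were seen in 478 higher and 366 lower genes, and at least 16-fold differences in 85 and 74. At 64-fold the counts were 10 and 13.

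**Figure D2:**
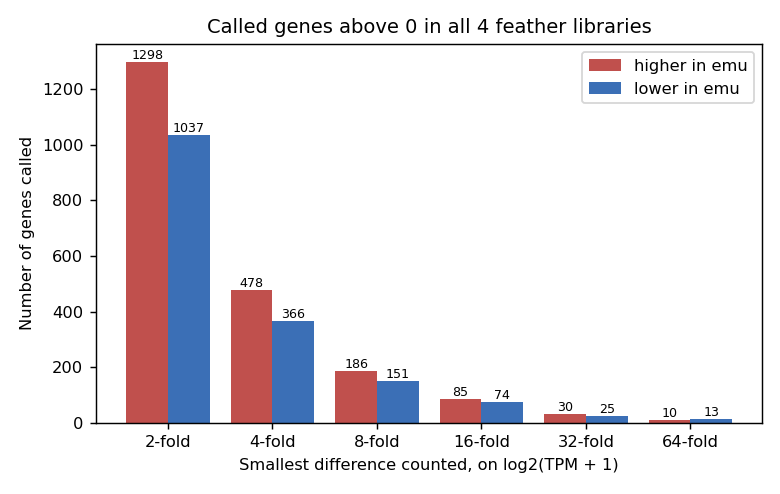
Number of genes called in feather and above 0 in all 4 libraries (vertical axis) whose emu-to-chicken difference is at least the size on the horizontal axis, for genes higher in emu and genes lower in emu. Counts fall from 1298 and 1037 genes at 2-fold to 10 and 13 genes at 64-fold.

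Among the genes that passed the filter, low and high genes were called at similar rates, but large differences were less frequent at high levels. Genes were binned by their mean TPM over the 14 libraries. Under a mean TPM of 5, 64.2% of 879 genes were called and 49.8% were called and at least 2-fold apart. At a mean TPM of 100 to 500, 67.6% of 759 genes were called and 25.8% were called and at least 2-fold apart. At a mean of 500 and over, 70.7% of 123 genes were called, 37 higher and 50 lower in emu, and 26.8% were called and at least 2-fold apart. The bins below a mean TPM of 100 went the other way, with more genes higher in emu. Higher and lower genes numbered 341 and 223 under 5, 588 and 481 at 5 to 20, and 1092 and 976 at 20 to 100. These shares are descriptions, and the trend over levels was not tested. The filter admits a low gene on the feather values of either bird alone, and the means used for binning include the feather values. Whether this bears on the share of large differences in the lowest bin was not tested.

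**Figure D3:**
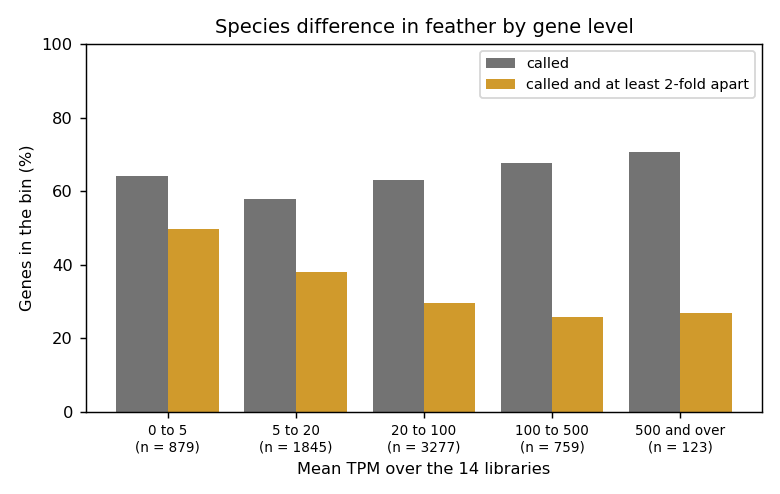
Share of genes called in feather (grey) and called with at least a 2-fold difference (yellow), in percent, by mean TPM over the 14 libraries, for genes above 0 in all 4 feather libraries. The called share stays between 57.9% and 70.7%, while the 2-fold share is 49.8% in the lowest bin and 25.8% and 26.8% in the highest 2.

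The most abundant transcripts were largely common to both birds. Of the 100 genes with the highest mean TPM in chicken feather and the 100 highest in emu feather, 74 were in both lists, and these lists held 37.4% of the TPM listed for chicken feather and 37.5% of that for emu feather. Of the 10 highest, 5 were shared. Among the 100 highest in chicken, 67 were called and 25 of these were at least 2-fold higher in chicken than in emu. Among the 100 highest in emu, 65 were called and 19 were at least 2-fold higher in emu. Over all tested genes, 64.1% were called and 36.8% were called at 2-fold or more, so the called shares of the lists were close to that of all genes. Ranking by the values of 1 bird also favours genes that are higher in that bird. Only 3 of the 100 highest chicken genes had a mean TPM under 10 in emu feather, 1 of them listed at 0 in both emu libraries, and 1 of the 100 highest emu genes was under 10 in chicken feather.

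The gene furthest above chicken in emu feather, among genes at 1 TPM or more in all 4 libraries, was ENSGALG00000015148. Its TPM was 2.38 and 2.55 in the chicken feather libraries and 995 and 1072 in the emu feather libraries. The groups lay far apart. The chicken mean was 2.47 ± 0.117 (SD, n = 2) and the emu mean 1034 ± 54.5 (SD, n = 2), a difference of 8.22 log2 units (SE 0.51, limma adjusted p 9.93e-07). It was also higher in emu in the other appendages, by 8.54 log2 units in scutate scale, 7.82 in claw and 4.16 in reticulate scale. In chicken itself the gene was higher outside feather, at 108 and 112 TPM in reticulate scale and 27.2 and 52.4 in claw. In emu it reached 8766 TPM in the claw library. The difference in feather was not called against the mean of the other appendages (1.38 log2 units, SE 0.62, limma adjusted p 0.179).

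The gene furthest below was ENSGALG00000008169. Its TPM was 491 and 518 in chicken feather and 1.11 and 2.55 in emu feather. The difference was -7.53 log2 units (SE 0.22, limma adjusted p 7.30e-09), and no emu library of any appendage came near a chicken one. The gene was steady within each bird, at 402 to 493 TPM elsewhere in chicken and 1.72 to 3.58 TPM elsewhere in emu. Scutate scale differed by -7.21 log2 units, reticulate scale by -6.74 and claw by -6.61.

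The other genes at either end mostly differed in all appendages. The 8 highest differences ran from 5.23 to 8.22 log2 units and the 8 lowest from -7.53 to -5.08. All 16 genes kept the direction of their estimates in all 4 appendages, and in 15 of the 16 the estimate was at least 8-fold in each of the other 3. For 1 of these 15, the fifth highest, the claw estimate of 3.01 log2 units was not called (limma adjusted p 0.180): its TPM was 0.626 and 114 in the chicken claw libraries and 109 in the emu claw library, so that 1 chicken library lay above emu. Of the 8 highest, 0 of 8 were called against scutate scale, and the same held for the 8 lowest (0 of 8). Against the mean of the other appendages, 1 of the 8 highest (contrast -1.01 log2 units, limma adjusted p 0.0364) and 2 of the 8 lowest (1.01 and 0.85, limma adjusted p 0.00797 and 0.0242) were called, and in these 3 genes the species difference was smaller in feather than in each other appendage. Genes listed above 1 TPM in only 1 bird could not enter this ranking.

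A value of exactly 0 gives no fold change. It can also be a failed estimate or, in emu, a chicken identifier without an emu match. For a gene at 0 in every library of a bird, these cannot be told apart here from a gene that is not expressed. An identifier with a value above 0 in another emu library did carry emu values. Its 0 in feather can be a failed estimate or a lack of expression, and these cannot be told apart here either. Genes listed at 0 in both feather libraries of 1 species are therefore given apart. There were 160 such genes for emu and 53 for chicken, and a further 120 genes were listed at 0 in a single feather library of a species (59 in chicken, 61 in emu). The filter required these genes to reach a TPM of 1 in the other bird, so that their calls (157 of 160 and 53 of 53) follow from how they were chosen.

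The genes at 0 in emu feather were the more abundant ones. Their mean TPM in chicken feather had a median of 18.0 and ranged from 1.08 to 1114, with 102 of the 160 at 10 or more and 17 at 100 or more. Most of them were at 0 throughout emu: 70.6% of the 160 were listed at 0 in all 6 emu libraries, 44 more stayed under a TPM of 1 in the other emu libraries, and 3 reached 1 in at least 1 of these. The most abundant had a TPM of 1134 and 1093 in the chicken feather libraries, 624 to 1191 elsewhere in chicken, and was at 0 in all 6 emu libraries. In chicken, 122 of the 160 had a TPM of at least 1 in all 8 libraries. The sixth most abundant was different: its chicken TPM was 232 and 325 in feather, 40.1 and 18.4 in scutate scale, 149 and 127 in reticulate scale and 9.58 and 17.4 in claw, with 0 in every emu library. Its feather values exceeded those of the other chicken libraries.

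The genes at 0 in chicken feather were lower. Their mean TPM in emu feather had a median of 4.62 and reached 122, with 18 of the 53 at 10 or more and 1 at 100 or more. Only 17 (32.1%) were at 0 in all 8 chicken libraries, 29 had a value under 1 elsewhere, and 7 reached a TPM of 1 in some other chicken library. The most abundant had a TPM of 125 and 120 in the emu feather libraries, 163 and 131 in emu scutate scale, 7.78 in emu reticulate scale and 44.1 in emu claw. In chicken it was at 0 in all libraries except claw replicate 2, at 0.324. The second had a TPM of 55.4 and 79.5 in emu feather, 26.6 and 12.5 in emu scutate scale, 6.68 in claw and 13.5 in reticulate scale. It was highest in feather among the emu appendages, and in chicken its values above 0 were 0.201 and 0.183, in 1 reticulate scale and 1 claw library.

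Genes called in feather mostly had estimates of the same direction in the other appendages. Of the 4627 genes called in feather, 3644 (78.8%) had the same direction in all 4 appendages, 905 had it in only some of the others, and 78 had the opposite direction in all 3 others. The share with 1 direction throughout was 83.5% of the 2658 genes called at 2-fold or more (36.8% of those tested). It was 97.2% of the 287 called at 16-fold or more. Both sets include genes at 0 in feather libraries, and a gene at 0 throughout 1 bird has its direction set by that. Only 85 higher and 74 lower genes at 16-fold or more were above 0 in all 4 feather libraries, and their share was not counted. Over all 4301 called genes above 0 in all 4, the share was 77.8%. Differences of at least 2-fold in the feather direction in each of the other 3 appendages were seen in 1474 of the 4627. They were seen in 1370 of the 2658, and 237 of the 2658 were under 2-fold apart in all 3. These shares are counts of estimates, not of tests, and the share over all tested genes was not counted. The comparisons share no library with each other. They do share the assignment of emu transcripts to chicken identifiers, the scaling of the emu columns and the incubation temperatures, so they are not independent.

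To find differences that were larger in feather, the feather difference was set against the mean difference of the other 3 appendages in the same limma model. This contrast was called for 947 genes, 13.1% of those tested, with 269 above 0 (3.73%) and 678 below 0 (9.4%). Chicken claw, which enters this contrast, had the lowest median TPM of the groups, at 16.3 and 18.3. The median of the contrast over all genes was -0.12. It was -0.04 in the fit without claw, which gave 457 genes above 0 and 776 below. Median-ratio rescaling gave 364 above and 523 below, and quantile normalization 449 and 497. The split by direction thus moved with the scaling, and whether claw bears on it was not tested. A gene was counted as larger in feather when its feather difference and the contrast were both called in the same direction and the feather difference was larger in size than that of each other appendage. There were 410 such genes (5.68% of those tested), 135 higher in emu (1.87%) and 275 lower in emu (3.81%). After median-ratio rescaling the counts were 168 and 221, and after quantile normalization 209 and 200, so that the excess of genes lower in emu did not hold under that scaling. Without claw, the group with the widest replicate spread, they were 227 and 305.

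**Figure D4:**
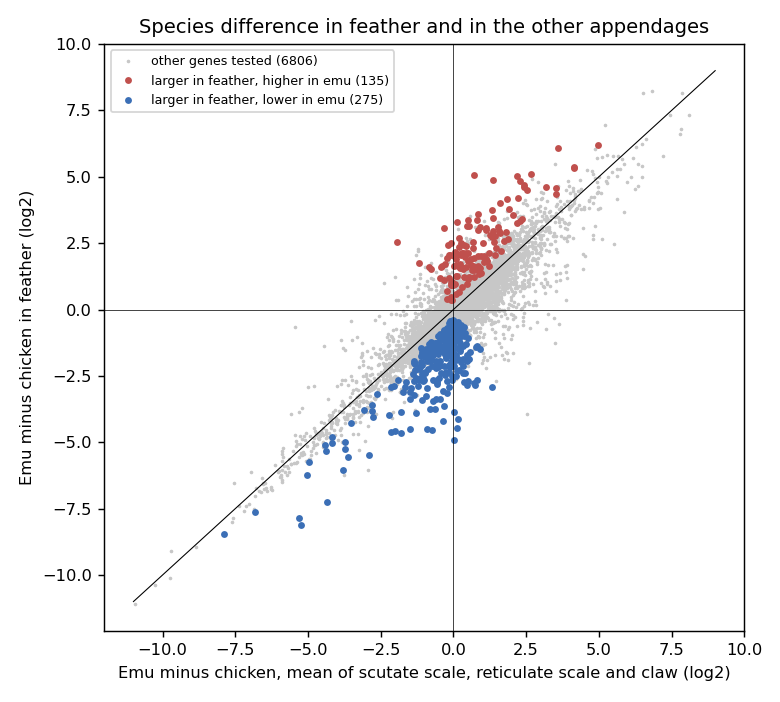
Emu minus chicken difference of each tested gene in feather (vertical axis, log2) against its mean over scutate scale, reticulate scale and claw (horizontal axis, log2), with the line of equality. The 135 genes larger in feather and higher in emu lie above the line and the 275 lower in emu lie below it, while most genes lie along the line.

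Feather did not hold the highest number of such genes. The same rule with another appendage in the place of feather gave 187 genes for scutate scale (2.59% of those tested), 345 for reticulate scale (4.78%) and 998 for claw (13.8%). Claw and reticulate scale rest on 1 emu library each, and the genes were filtered on their feather values. The claw contrast had a median of 0.24 over all genes, and 819 of the 998 claw genes were higher in emu. Chicken claw had the lowest median TPM of the groups, and whether this bears on that direction was not tested. The differences between these counts were not tested.

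The count of 410 rose without chicken claw replicate 1 or 2, and fell when any 1 feather library was left out. It was 189 without chicken feather replicate 1, 135 without chicken feather replicate 2, 194 without emu feather replicate 1 and 146 without emu feather replicate 2. The 947 genes called in the contrast became 424, 303, 442 and 356 without the same libraries, and 1486 and 1536 without chicken claw replicate 1 or 2. Without the single emu claw library, 304 genes were larger in feather, and 233 of the 410 were among them.

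Among the 410 genes the median feather difference was 1.93 log2 units in size, against 0.79 in the same direction in scutate scale, while reticulate scale had 0.43 and claw 0.15. These medians describe what the rule selected. In 177 genes all 4 appendages had 1 direction, in 206 the others were mixed, and in 27 the other 3 all had the opposite direction. The feather difference was at least 2-fold in 348 genes, and in 122 of these it was under 2-fold in each of the other 3 appendages. Genes above 0 in all 4 feather libraries made up 355 of the 410, 9 were at 0 in both chicken feather libraries, 23 at 0 in both emu feather libraries and 23 at 0 in a single library.

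The library group that stood apart differed with the direction. Among the 135 genes larger in feather and higher in emu, emu feather alone was called above the mean of the other emu appendages in 80, chicken feather alone was called below the other chicken appendages in 43, and both held in 8. Among the 275 lower in emu, chicken feather alone was called above the other chicken appendages in 195, emu feather alone below in 39, and both in 31. In both directions the bird with the higher feather level was the one most often called apart from its own other appendages. These counts come from the values that chose the genes, and the emu comparison is the less precise, since it includes 2 single libraries. The chicken comparison includes chicken claw, which had the lowest median TPM of the groups (16.3 and 18.3). Whether this bears on the counts was not tested. The 135 and 275 genes themselves became 209 and 200 after quantile normalization. Log2(TPM + 1) also compresses differences between low levels, and whether this bears on these counts was not tested. Of the 135, 9 were at 0 in both chicken feather libraries, and of the 275, 23 were at 0 in both emu feather libraries.

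Among the genes larger in feather with a TPM of 1 or more in all 4 feather libraries, the largest contrast in the direction of emu was that of ENSGALG00000012420. Its TPM was 9.58 and 10.8 in chicken feather and 77.0 and 52.6 in emu feather, so the emu libraries were higher by 2.53 log2 units (SE 0.89, limma adjusted p 0.0319). In the other chicken libraries the TPM was 26.7 and 218 in scutate scale, 642 and 346 in reticulate scale and 138 and 530 in claw. In emu it was 20.1 and 37.6 in scutate scale, 70.4 in claw and 85.3 in reticulate scale. Chicken feather was thus the lowest group for this gene, and chicken scutate scale varied widely between its replicates. Outside feather the species difference had the opposite sign, at -1.45 log2 units in scutate scale, -1.93 in claw and -2.45 in reticulate scale, none of them called (limma adjusted p 0.182, 0.160 and 0.0814). The feather difference exceeded that of reticulate scale in size only narrowly (2.53 against -2.45 log2 units). The contrast was 4.47 log2 units (SE 1.07, limma adjusted p 0.0259), and it was no longer called when any 1 of the 4 feather libraries was left out (limma adjusted p 0.0858 to 0.106). Against scutate scale alone it was not called (3.98 log2 units, SE 1.26, limma adjusted p 0.124).

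Among the same genes, the largest contrast in the other direction was that of ENSGALG00000009546. Its TPM was 25.7 and 34.8 in chicken feather and 4.21 and 2.25 in emu feather, a difference of -2.91 log2 units (SE 0.56, limma adjusted p 0.00138). Emu feather was the lowest group, since the emu TPM was 32.7 and 36.6 in scutate scale, 36.4 in claw and 24.2 in reticulate scale. The other chicken libraries had 37.1 and 11.4 in scutate scale, 7.79 and 9.28 in reticulate scale and 5.32 and 16.2 in claw. There the estimated species difference was positive, at 0.71, 1.41 and 1.85 log2 units in the same order of appendages. It was not called in scutate scale (limma adjusted p 0.286), where 1 chicken library lay above both emu libraries, or in reticulate scale. The reticulate scale and claw estimates rest on 1 emu library each. The contrast was -4.23 log2 units (SE 0.67, limma adjusted p 0.00482), and against scutate scale alone it was -3.62 (SE 0.79, limma adjusted p 0.0360).

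**Figure D5:**
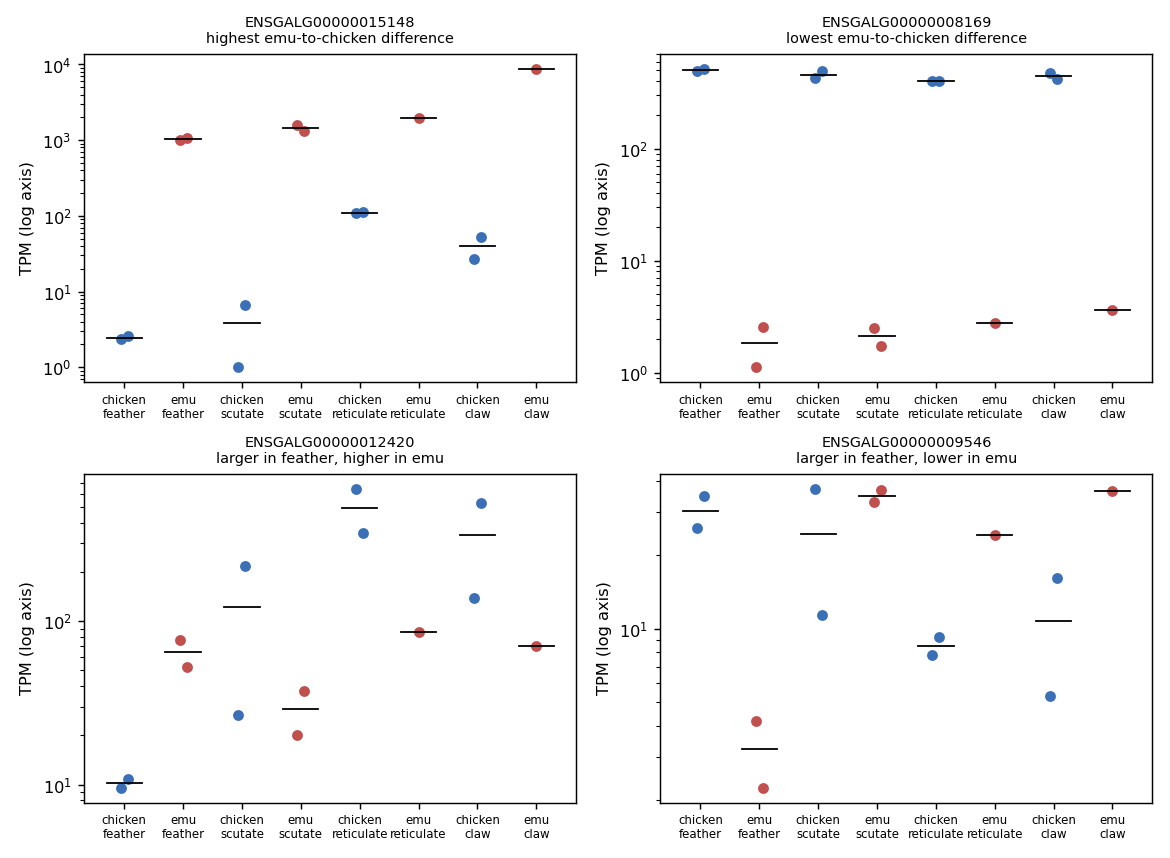
TPM (logarithmic axis) of 4 genes in all 14 libraries, by species and appendage, where points are libraries and lines are group means. The upper genes differ between the birds in every appendage, ENSGALG00000012420 is lowest in chicken feather (9.58 and 10.8 TPM), and ENSGALG00000009546 is lowest in emu feather (4.21 and 2.25 TPM).

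The next contrast was more precise than these. The second highest of the same genes in the direction of emu had a TPM of 12.8 and 23.3 in chicken feather against 627 and 591 in emu feather, a difference of 5.05 log2 units. Chicken scutate scale (251 and 259 TPM) and reticulate scale (433 and 683) were close to emu scutate scale (337 and 347) and reticulate scale (635), and both claw groups were low (20.5 and 5.99 in chicken, 33.4 in emu). Its contrast was 4.34 log2 units (SE 0.55, limma adjusted p 0.00177). Over the 6 highest contrasts among the genes larger in feather and at 1 TPM or more in all 4 feather libraries, the feather difference ran from 2.43 to 5.05 log2 units, and 4 of 6 were also called against scutate scale. Over the 6 lowest among them it ran from -4.50 to -2.69, and 3 of 6 were called against scutate scale. The contrast with scutate scale shares its libraries with the contrast that ranked these genes, so these calls are not a separate check. Genes with a called contrast that did not meet the rule for larger in feather are not in this ranking.

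Scutate scale was the only other appendage with 2 libraries in both birds, and set against it alone the feather difference was called as unequal for 305 genes (4.23% of those tested). Of the 410 genes larger in feather, 97 were among these, and 95 of these had a feather difference of at least 2-fold in the direction of the contrast, 34 higher and 61 lower in emu. The feather and scutate scale libraries also entered the rule that chose the 410, so the overlap partly follows from that rule and is not a separate check. In 19 of the 95, 8 higher and 11 lower in emu, the TPM was at least 1 in all 4 feather libraries and the birds were under 2-fold apart in each other appendage. The count of 305 was 640 and 644 without chicken claw replicate 1 or 2. It was 129 and 108 without chicken feather replicate 1 or 2, 140 and 121 without emu feather replicate 1 or 2, 189 without chicken scutate scale replicate 2, and 194 and 147 without emu scutate scale replicate 1 or 2.

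The reverse was also seen. The contrast was called for 947 genes, 13.1% of those tested. In 321 of the 947, the species difference was smaller in size in feather than in each of the other appendages. Their contrast was above 0 in 74 and below 0 in 247. This count was not made for the other appendages or under other scalings. A further 216 of the 947 genes were neither larger nor smaller in feather by these rules.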

How the data were processed

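RNA sequencing values of 14 libraries in 8 groups were used, grouped by title. The authors deposited 1 table, read here as a score, the square root of TPM, inferred from the values: squares of each emu column sum to 550000 and squares of the chicken columns to 500783 to 575133. Per the submitters' processing notes, CASAVA, TopHat2 2.0.6 and HTSeq 0.5.3p9 were used. Genome builds and the assignment of emu transcripts to chicken identifiers are not given in the sources used here. Values were squared to TPM, and read depth is unknown.

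Log2(TPM + 1) was fitted with limma 3.58.1 in R 4.3.3 (means of the 8 groups, 6 residual degrees of freedom, eBayes with trend, Benjamini-Hochberg over 7216 genes), so groups of 1 or 2 libraries shared 1 estimate of spread. P-values measure the spread between replicates over all replicated groups, so a feather p-value also reflects the spread within scale and claw groups. The code was tested on simulated data with normal errors, which does not test how well the model suits these data. Log2 differences understate the change of low genes.

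Members, gene lists and tests were chosen with earlier results of these data known. The 24 gene lists could not be used without symbols. Genes were named by rank of the difference or the contrast, with at most 2 identifiers rising and 2 falling. Same-numbered feather libraries did not deviate together (correlation -0.000934), so they were not paired. Alternatives covered the pseudocount, filter, scaling, trend, replicate block, libraries fitted and each library left out. Scaling to a common total, leaving out genes at 0, and leaving out a single emu library were chosen after seeing the data.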

Additional observations from a re-analysis of the deposited data

Results flagged for a closer look

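Differences between the birds that were themselves unequal between appendages were the results picked out for a closer look, each by a test of the difference of differences in limma. The feather difference departed from the mean of the other appendages in 947 genes, and 410 of these were larger in feather by the full rule. It departed from scutate scale alone in 305 genes. The contrast with the other appendages was 4.47 log2 units for ENSGALG00000012420 and -4.23 for ENSGALG00000009546. Each bird had 2 libraries in feather, and the emu reticulate scale and claw values in the first contrast rest on 1 library each. Stage differed between appendages along with the tissue, so the appendage and the stage cannot be told apart.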

How the results depend on the processing

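The count of genes differing in feather stayed between 3834 and 5062 when any 1 library was left out, with 1965 to 2653 higher and 1752 to 2409 lower in emu. It was 5504 from the 4 feather libraries alone. Requiring an absolute log2 feather difference of at least 1 gave 2658 genes, 1405 higher and 1253 lower. Requiring an absolute value of at least 1 for the contrast with the other appendages gave 610 genes, 425 of them below 0. With that requirement on the contrast, 272 genes were larger in feather, 176 of them lower in emu. Quantile normalization gave 449 genes above 0 in that contrast and 209 larger in feather and higher in emu. Without the claw libraries these were 457 and 227, and the count against scutate scale was 640. From the feather and scutate scale libraries alone that count was 672. With 1 library left out, the contrast with the other appendages was called for 303 to 1536 genes, 95 to 496 above 0 and 208 to 1124 below 0. Genes larger in feather then numbered 135 to 591, 47 to 221 higher and 88 to 390 lower in emu, and the count against scutate scale was 108 to 644. The highest count of each of these ranges came from leaving out a chicken claw library, which leaves claw without replicates in the estimate of spread. The lower counts against the other appendages came from leaving out a feather library. The cause of these changes was not tested. Genes at 0 in both chicken feather libraries were 279 with no filter and 23 at a TPM of at least 5, and genes at 0 in both emu feather libraries were 448 with no filter. Under the replicate block the counts were 4560 genes in feather, 831 in the contrast with the other appendages, 356 larger in feather and 260 against scutate scale, and the block moved no count by more than 1.5 times. ENSGALG00000015148 and ENSGALG00000008169 were called in all 26 alternatives run for them and ENSGALG00000009546 in all 24. The contrast of ENSGALG00000012420 was 4.39, 4.56, 4.20 and 4.74 without chicken feather replicates 1 and 2 and emu feather replicates 1 and 2, no longer called. The gene list counts were not run, since no identifier had a symbol. Read depth is unknown, so no detection limit can be given for a gene at 0.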
